A study of Mus musculus with 4 samples.

Results

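The mouse genome carries a family of acyl-CoA synthetase genes, and 10 of them were placed in the lamina-associated domains (LADs) of primary hepatocytes from wild-type (WT) and *Tm7sf2*-KO mice: *Acsl1*, *Acsl3*, *Acsl4*, *Acsl5* and *Acsl6*, and *Acsm1*, *Acsm2*, *Acsm3*, *Acsm4* and *Acsm5*. They were taken by their symbol in the NCBIM37 (mm9) annotation, a rule that uses no measured value, and are 10 of its 22367 protein-coding genes on chromosomes 1 to 19, X and Y. The choice of this family was made with earlier results of these data known. Both groups of mice were on a C57BL/6 background and aged 12 to 16 weeks. The WT mice were *Tm7sf2*+/+, and the KO mice lacked *Tm7sf2* (NET47), a nuclear envelope protein with sterol reductase activity. Hepatocytes of each genotype were cultured with dexamethasone, insulin and EGF. A lentivirus was left on them for 24 h to bring in either Dam-LaminB1, which methylates GATC sites in DNA at the nuclear envelope (NE), or Dam only, which measures accessibility. The 4 libraries thus stand for 2 genotypes by 2 constructs, and DNA of 4 mice was pooled for every library. Between the genotypes there are therefore no replicate libraries, and every difference below is a description without a p-value.

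Acyl-CoA synthetases join a fatty acid to coenzyme A, the step that any fatty acid passes before it is oxidized, stored as triglyceride or built into membranes. The Acsl enzymes act on long-chain fatty acids and sit on the endoplasmic reticulum, on mitochondria or on lipid droplets, whereas the Acsm enzymes act on medium-chain fatty acids in the mitochondrial matrix, where some of them also activate carboxylic acid drugs and benzoate for conjugation to glycine. Liver is a main site of both activities. A LAD is a stretch of DNA where the Dam-LaminB1 signal exceeded that of Dam only, and genes in LADs are often weakly expressed.

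The deposited lists hold 8107 WT LADs and 16076 KO LADs as positions without a signal, together with the differential regions (DRs) that lie in the LADs of only 1 genotype for at least 10 kb. Each gene was called PI if its span shared at least 1 base with a WT-only DR (periphery to interior in the KO), IP if it shared a base with a KO-only DR (interior to periphery), and ambiguous (AMB) if it shared bases with both. Genes without a DR were PP if a LAD of each genotype touched them and II otherwise. The KO libraries had fewer usable reads than the WT libraries, and the lists give no depth per region, so the precision of a border is known only from the spacing of GATC sites.

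All 5 Acsm genes lie within 261.2 kb of chromosome 7, and all 5 overlapped a DR, with *Acsm5* and *Acsm2* PI, *Acsm4* and *Acsm3* IP, and *Acsm1* AMB. Of the 5 Acsl genes, which lie on 5 chromosomes, *Acsl4* was IP and *Acsl1*, *Acsl3*, *Acsl5* and *Acsl6* were II. Among all protein-coding genes 5.43% were PI, 17.1% IP, 2.96% AMB, 17.9% PP and 56.6% II, so that 25.5% overlapped a DR, against 6 of the 10 members. Among the 7108 genes as long as the members (17.5 to 72.5 kb) that share was 28.7%, with 1.42% AMB. The 5 Acsm genes are not 5 independent observations, because neighboring genes share LADs: *Acsm5*, *Acsm2* and the start of *Acsm1* lay in the same WT LAD. On chromosome 7 as a whole 5.65% of the 2072 genes were PI and 11.2% IP.

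LADs covered 0% of the summed Acsl spans (290.9 kb) in WT and 6.28% in KO, all of it at *Acsl4*. Of the summed Acsm spans (166.2 kb), LADs covered 45.2% in WT and 35.5% in KO. These totals hide an exchange. WT-only DRs took 60.5 kb of the Acsm spans, KO-only DRs took 41.4 kb, and only 14.6 kb, all in *Acsm1*, were in LADs of both genotypes. Over the exons of the Acsm genes the balance was slightly turned, with 39.9% of the exonic bases in LADs in WT and 41.3% in KO. Their 73 exons divided into 25 that touched a LAD in WT alone, 29 that did so in KO alone, 3 that did so in both genotypes and 16 that touched none. Of the 96 exons of the Acsl genes, 94 were in no LAD of either genotype.

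**Figure D1:**
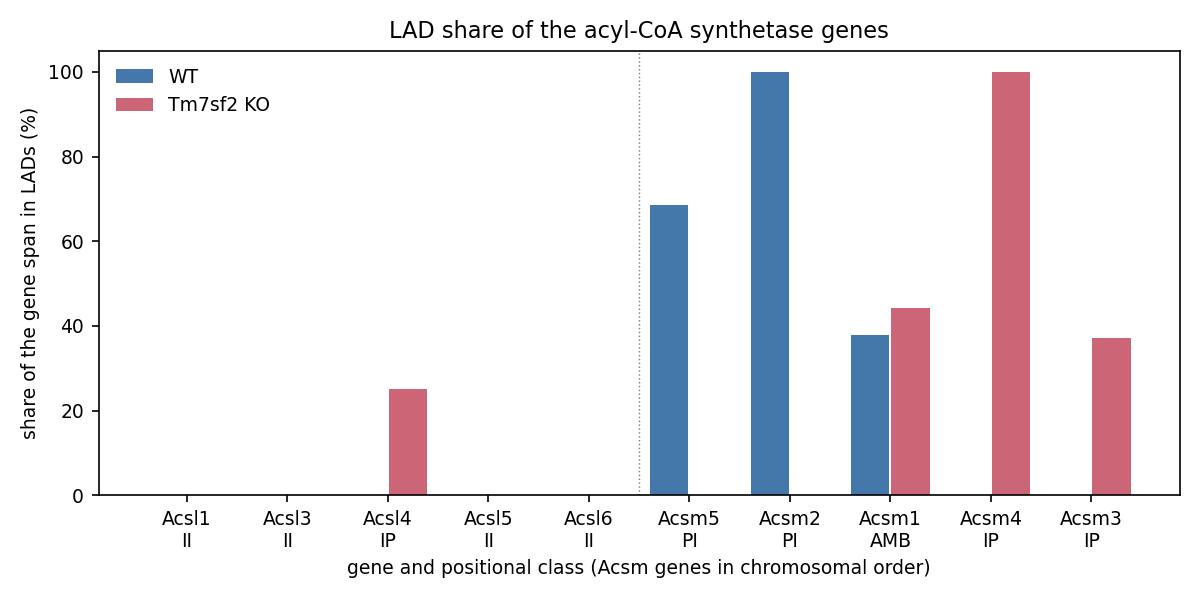
Share of each gene span in LADs (percent, y axis) for the 5 Acsl genes and the 5 Acsm genes in their order along chromosome 7 (x axis, with the positional class), in WT (blue bars) and *Tm7sf2* KO (red bars). Each bar comes from 1 pooled library pair, so there is no error bar. WT bars stand at *Acsm5* (68.5%), *Acsm2* (100%) and *Acsm1* (37.8%), and KO bars at *Acsl4* (25.2%), *Acsm1* (44.3%), *Acsm4* (100%) and *Acsm3* (37.2%).

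The Acsm genes occupy 261.2 kb of chromosome 7 (126669818 to 126931027, NCBIM37), all on the plus strand, in the order *Acsm5*, *Acsm2*, *Acsm1*, *Acsm4*, *Acsm3*. From the start of *Acsm5* to the end of *Acsm2*, WT LADs covered 92.2% and KO LADs 0%. From the start of *Acsm4* to the end of *Acsm3*, WT LADs covered 0% and KO LADs 82.1%. Between these stretches LADs of both genotypes were present, in *Acsm1* and in the 27.5 kb from its end to the start of *Acsm4*, where the cover was 40.3% in WT and 49.4% in KO. Over the whole stretch the genotypes lay closer together, with 107.3 kb (41.1%) covered in WT against 118.2 kb (45.2%) in KO. Over the 1 Mb centered on the group the cover was 59.0% in WT and 53.8% in KO. The distance between the end of *Acsm2* and the start of *Acsm4*, the PI and the IP gene nearest to each other, was 93.4 kb. Of the 1215 PI genes 313 (25.8%) had an IP gene within 100 kb, against 36.9% of genes of any class. The latter include the IP genes themselves, which can share a DR with an IP neighbor, so the shares are not directly comparable.

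**Figure D2:**
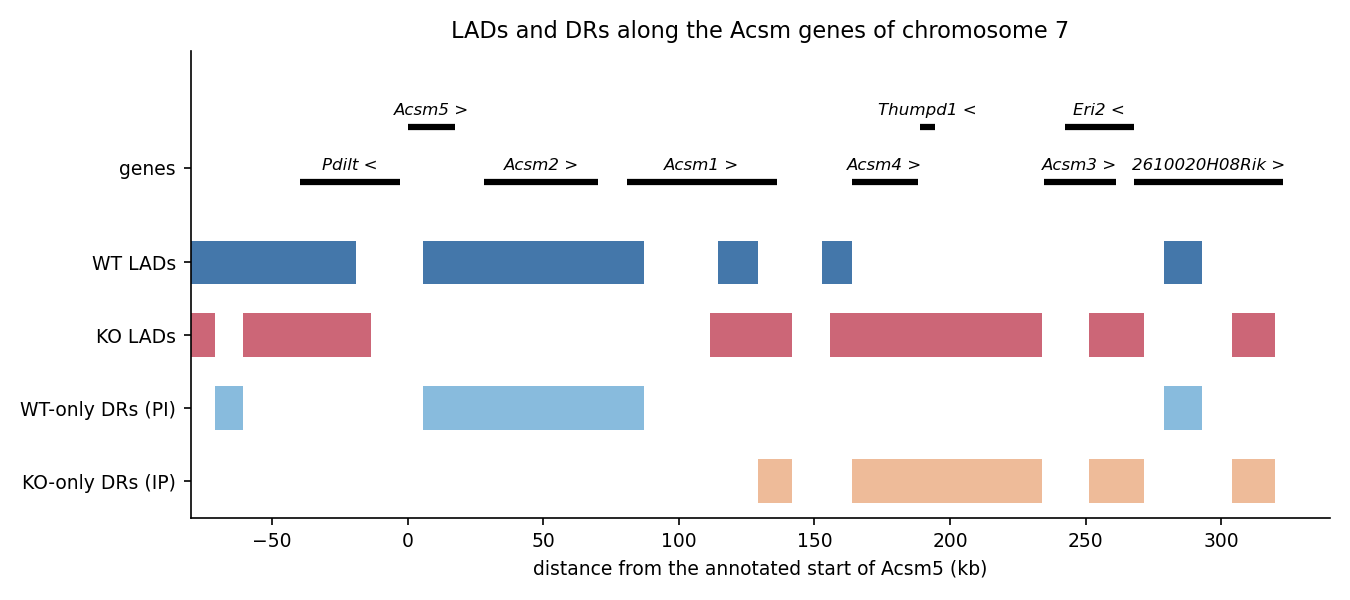
Map of the Acsm genes and their neighbors on chromosome 7, drawn to scale along the distance from the annotated start of *Acsm5* (kb, x axis). Black bars are gene spans with the direction of transcription, and colored bars are, from top to bottom, WT LADs, KO LADs, WT-only DRs and KO-only DRs. The long WT-only DR (81.6 kb) lies over *Acsm5*, *Acsm2* and the start of *Acsm1*, and the long KO-only DR (70.1 kb) over *Acsm4* and *Thumpd1*.

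Most LADs in these lists begin and end at a GATC site, the sequence that Dam methylates. Of the WT borders 98.9%, and of the KO borders 99.5%, coincided with such a site, and so did all 9 borders in a member or within 10 bases of one. The sequence at a border shows the site at which the segmentation placed it, so 60 bases around each border that falls within an Acsm gene are printed here, from the plus strand of NCBIM37 with GATC sites in capitals.
Acsm5 exon 4, first WT LAD begins, chr7:126675300-126675359: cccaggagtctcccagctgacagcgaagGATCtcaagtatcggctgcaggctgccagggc
Acsm1 5′ part, first WT LAD ends, chr7:126756883-126756942: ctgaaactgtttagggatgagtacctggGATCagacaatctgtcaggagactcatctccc
Acsm1 intron 4, KO LAD begins, chr7:126781444-126781503: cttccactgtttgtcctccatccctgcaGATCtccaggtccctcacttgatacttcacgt
Acsm1 intron 6, second WT LAD begins, chr7:126784408-126784467: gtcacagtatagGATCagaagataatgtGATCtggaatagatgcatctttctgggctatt
Acsm1 intron 9, second WT LAD ends and KO-only DR begins, chr7:126799035-126799094: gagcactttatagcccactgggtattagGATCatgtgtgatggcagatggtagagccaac
Acsm3 intron 9, KO LAD begins, chr7:126921111-126921170: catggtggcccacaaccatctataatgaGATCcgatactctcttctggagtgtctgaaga

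*Acsm2* (chromosome 7, 126697983 to 126740115, 42.1 kb), whose product activates medium-chain fatty acids, lay wholly in a WT LAD and in no KO LAD. In WT, 100% of its span and all 14 exons were in that LAD. In KO the nearest LAD was 41.8 kb from its start and 41.4 kb from its end. All 6 coding transcripts of *Acsm2*, which begin at 6 positions, started in a LAD of WT only.

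*Acsm5* (126669818 to 126687307, 17.5 kb), a less studied member, was 68.5% covered by the same WT LAD, against 0% in KO. The WT LAD began 5.51 kb past the start of the gene, inside exon 4, and took in 11 of its 14 exons. Its start was in no LAD of either genotype, and the nearest KO LAD was 13.6 kb away. The LAD over these genes ran from 126675331 to 126756913, a length of 81.6 kb with 214 GATC sites, and no base of it was in a KO LAD. It was the fifth longest, at rank 5, of the 995 WT LADs without a base in a KO LAD, whose median was 16.4 kb, and as a WT-only DR it was rank 62 of 7787 by length. The call of *Acsm2* and *Acsm5* therefore rests on a single region.

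*Acsm1* (126750540 to 126806029, 55.5 kb), a butyrate-activating enzyme of the mitochondrial matrix, was covered to 37.8% by WT LADs and to 44.3% by a KO LAD. The order of the genotypes depended on how the cover was taken. The KO minus WT difference was 6.40 points over the span, 51.4 points over exonic bases and 32.8 points with LADs of at least 20 kb, but -16.2 points over the 100 kb centered on the gene and -55.7 points with LADs joined across gaps of up to 50 kb. A WT-only DR held 6.37 kb at its 5′ end (11.5% of the span), LADs of both genotypes held 14.6 kb in its middle (26.4%), and a KO-only DR held 6.96 kb at its 3′ end (12.5%). Exons 7, 8 and 9 of 14 were in LADs of both genotypes, 7 exons were in a KO LAD only, and the first 4 were in none. The 5′ call depends on the gene model. Of its 4 coding transcripts, 1 starts at 126750540 in the WT-only DR, and the other 3 start at 126761295 or 126761327, which were in no LAD and at least 4.38 kb past the border. By the coding transcript with the most exonic bases *Acsm1* was IP rather than AMB.

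*Acsm4* (126833540 to 126858081, 24.5 kb), known for its expression in olfactory epithelium, showed the reverse of *Acsm2*. No WT LAD overlapped it, whereas 100% of its span and all 14 exons were in a KO LAD. A WT LAD of 11.1 kb (126822451 to 126833538) ended 2 bp upstream of its start, so that the 250 bases before the start were almost wholly in LADs of both genotypes, 99.6% in WT and 100% in KO, and the gene body was in a KO LAD only. The KO LAD ran on for 78.2 kb, from 126825476 to 126903648. The part outside WT LADs was a DR of 70.1 kb with 203 GATC sites, rank 171 of 8208 KO-only DRs by length.

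*Acsm3* (126904437 to 126931027, 26.6 kb), described earlier as the SA gene of hypertensive rats, had no WT LAD (0%) but was covered to 37.2% by a KO LAD of 20.1 kb over its 3′ part from exon 10 to exon 17. The difference of 37.2 points between KO and WT was 57.4 points over exonic bases and 100 points with LADs joined across gaps of up to 50 kb. Its start was in no LAD of either genotype. The KO LAD over *Acsm4* ended 0.789 kb upstream of it, and the nearest WT LAD was 44.1 kb away. All 6 of its coding transcripts started outside LADs in both genotypes.

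The 250 bases before a gene start are printed for the 3 members whose annotated start was in a LAD of 1 genotype under all of their coding transcripts, read in the direction of transcription from NCBIM37, with GATC sites in capitals. That of *Acsl4* is on the minus strand. In *Acsm4* the last 4 bases before the start are the GATC site at which the WT LAD ended.
Acsm2, chr7:126697733-126697982: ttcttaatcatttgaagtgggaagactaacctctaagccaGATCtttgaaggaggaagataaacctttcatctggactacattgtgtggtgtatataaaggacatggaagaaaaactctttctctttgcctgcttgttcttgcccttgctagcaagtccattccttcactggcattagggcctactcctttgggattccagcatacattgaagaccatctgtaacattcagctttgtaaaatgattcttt
Acsm4, chr7:126833290-126833539: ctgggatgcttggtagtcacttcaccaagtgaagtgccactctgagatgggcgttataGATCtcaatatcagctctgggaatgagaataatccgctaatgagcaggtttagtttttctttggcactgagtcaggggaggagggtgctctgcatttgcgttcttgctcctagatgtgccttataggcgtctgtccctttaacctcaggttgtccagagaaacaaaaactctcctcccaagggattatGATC
Acsl4, chrX:138825079-138825328: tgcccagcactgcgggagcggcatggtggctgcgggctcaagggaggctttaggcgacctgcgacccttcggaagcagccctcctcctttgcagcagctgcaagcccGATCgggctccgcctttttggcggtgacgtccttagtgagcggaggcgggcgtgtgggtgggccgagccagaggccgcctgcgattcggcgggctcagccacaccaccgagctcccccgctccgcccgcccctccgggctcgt

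In these windows, *Acsm2* held 0 CG dinucleotides, *Acsm4* held 4 and *Acsl4* held 25, against a median of 8 (quartiles 3 and 18) over 22362 protein-coding genes. Across the family, the 5 Acsm windows held 0 to 5 CG, those of *Acsl1*, *Acsl3* and *Acsl4* held 20, 28 and 25, and those of *Acsl5* and *Acsl6* held 7 and 2. A GATC site was present before 6 of the 10 starts, compared with 40.2% of all windows. TATAAA, searched on both strands, occurred before 1 of the members (*Acsm2*) and in 12.3% of all windows. CCAAT, on either strand, occurred before 4 of the members and in 35.0% of all windows. AGGTCA, the core motif of many nuclear receptors, occurred on either strand before *Acsl6* and *Acsm1* and in 12.5% of all windows. Each window precedes the annotated gene start. At *Acsm2*, *Acsm1* and *Acsl6* that is not the start of the coding transcript with the most exonic bases. The latter lies downstream, at 126705007, 126761295 and 54117704. The motifs are descriptions of the sequence, and no match was read as a binding site.

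The genes beside the Acsm group were called in the same way. *Thumpd1*, an adaptor for tRNA acetylation that begins beyond the 3′ end of *Acsm4*, was IP with 100% of its 5.67 kb in the same KO LAD. *Eri2*, an exoribonuclease gene on the opposite strand that overlaps *Acsm3*, was IP with 64.7% of its span and all 8 exons in a KO LAD only. *Pdilt*, a testis protein disulfide isomerase gene 2.82 kb upstream of *Acsm5*, was PP, covered to 56.0% in WT and to 70.8% in KO. *2610020H08Rik*, 6.49 kb past *Acsm3*, was AMB, with 25.7% in a WT-only DR and 36.4% in KO-only DRs. Of these 4 neighbors, 3 overlapped a DR, against 25.5% of all genes, but *Thumpd1* shared the DR of *Acsm4*, and *Eri2* and *2610020H08Rik* that of *Acsm3*, so these overlaps are not separate observations. *2610020H08Rik* also held 2 DRs that no Acsm gene touched, a WT-only DR of 14.1 kb and a KO-only DR of 16.2 kb. The coding sequences of the Acsm genes were 56.4% (*Acsm1* and *Acsm3*) to 65.3% (*Acsm4* and *Acsm5*) identical over 10 pairs, and whether any read was shared between copies was not tested.

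*Acsl4* (X chromosome, 138752536 to 138825078, minus strand, 72.5 kb), which favors arachidonic and other polyunsaturated fatty acids, was the Acsl gene that overlapped a LAD. In WT no LAD touched it, and the nearest was 105.1 kb from its start and 32.5 kb from its 3′ end. In KO, LADs covered both ends of the gene and left the middle free. A KO LAD of 42.5 kb (138810135 to 138852612) reached from 27.5 kb upstream of the start to 14.9 kb into the gene, within intron 1, and a KO LAD of 46.9 kb (138708953 to 138755869) covered the 3′ end from intron 15 onward. Together they held 18.3 kb, or 25.2% of the span, and only exons 1 and 16 of 16. The start of each of its 4 coding transcripts was in a KO LAD only. Because exon 16 is long, LADs held 58.2% of the exonic bases in KO. The KO-only DRs at the gene were 42.5 kb (rank 767 of 8208) and 35.9 kb (rank 1174), with 103 and 94 GATC sites. The 2 borders inside *Acsl4* are shown on the minus strand.
Acsl4 intron 1, KO LAD over the start ends, chrX:138810104-138810163: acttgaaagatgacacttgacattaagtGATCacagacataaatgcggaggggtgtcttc
Acsl4 intron 15, KO LAD over the 3′ end begins, chrX:138755839-138755898: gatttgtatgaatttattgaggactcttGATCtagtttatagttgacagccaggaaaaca

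LAD cover around *Acsl4* was higher in KO at each width of window. In the 100 kb centered on the gene LADs covered 0% in WT and 45.7% in KO, and in the 1 Mb around it 20.0% and 53.6%. Over the whole X chromosome the cover was 72.4% in WT and 73.2% in KO, and 8.8% of its 932 protein-coding genes were PI and 28.5% IP. *Kcne1l*, a potassium channel subunit gene 11.7 kb past the 3′ end of *Acsl4*, lay wholly in a KO-only DR.

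**Figure D3:**
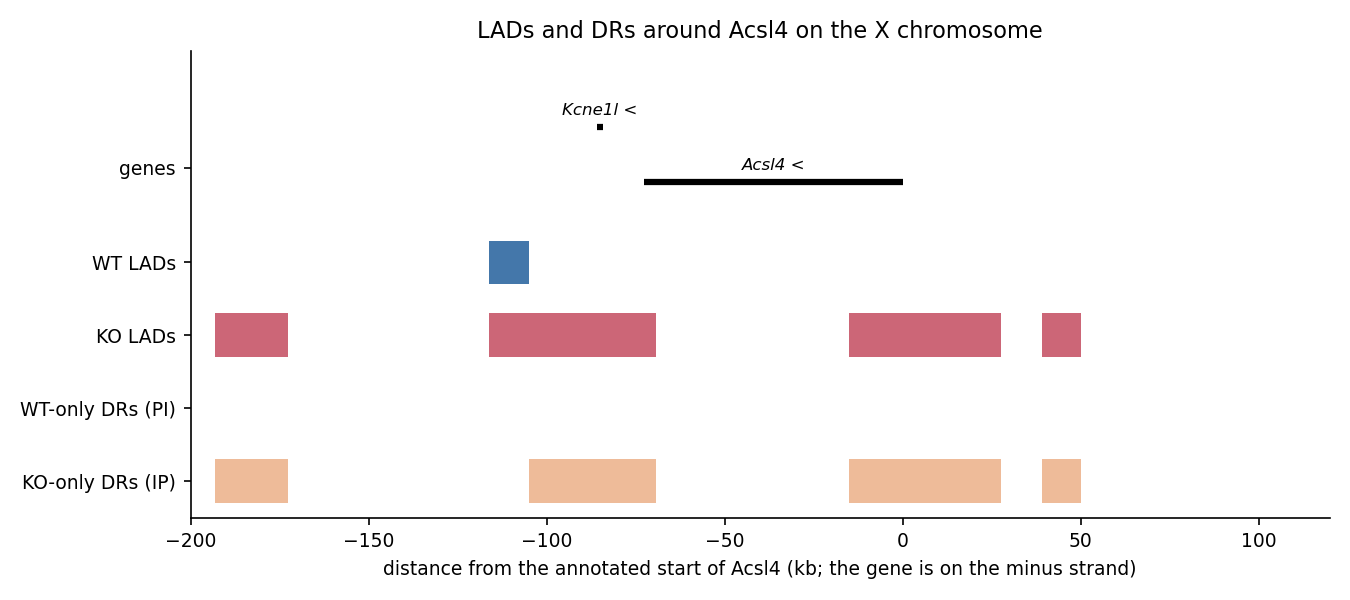
Map of *Acsl4* and *Kcne1l* on the X chromosome, drawn to scale along the distance from the annotated start of *Acsl4* (kb, x axis), with *Acsl4* running to the left. Black bars are gene spans, and colored bars are WT LADs, KO LADs, WT-only DRs and KO-only DRs. The KO LADs lie over the start and the 3′ end of *Acsl4* with a gap between them, and the nearest WT LAD (11.1 kb) lies past the 3′ end.

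The other 4 Acsl genes had no base in a LAD of either genotype, and they differed in how far the nearest LAD was. *Acsl1* (chromosome 8, 47556395 to 47621405), the main long-chain synthetase of liver, had its nearest LAD 88.4 kb from its start in WT and 88.7 kb in KO. *Acsl3* (chromosome 1, 78654400 to 78703562), an enzyme of the endoplasmic reticulum and lipid droplets, lay closest to LADs in WT. A WT LAD began 23.0 kb past its 3′ end, and a KO LAD lay 27.9 kb upstream of its start. *Acsl5* (chromosome 19, 55327859 to 55371117), an enzyme of the endoplasmic reticulum and mitochondria, was 213.3 kb from a WT LAD and 271.5 kb from a KO LAD. *Acsl6* (chromosome 11, 54117300 to 54178258), best known from brain, had no WT LAD within 1141 kb, whereas in KO the distance from its 3′ end to the next LAD was 9.11 kb. In the 100 kb centered on it LADs covered 0% in WT and 10.4% in KO. The KO LAD past its 3′ end covered 94.3% of *4930404A10Rik*, the next gene, which was IP.

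The members were also placed by their starts alone. The annotated start was in a LAD of WT only at *Acsm1* and *Acsm2*, in a LAD of KO only at *Acsm4* and *Acsl4*, and outside LADs in both genotypes at the other 6 members. Among all protein-coding genes 2.62% of the starts were in a LAD of WT only, 12.7% in one of KO only, 20.1% in both and 64.6% in neither. The precision with which a border can be placed at the members depends on their GATC sites, of which the Acsm genes held 2.63 (*Acsm2*) to 3.05 (*Acsm3*) per kb and the Acsl genes 2.11 (*Acsl1*) to 2.62 (*Acsl6*) per kb. The GC content was 40.8% (*Acsm3*) to 44.1% (*Acsm5*) in the Acsm genes and 38.9% (*Acsl4*) to 48.1% (*Acsl6*) in the Acsl genes, so that *Acsl4* had the lowest of the 10 members. Whether site density or base composition had a part in the calls was not tested.

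In the 1 Mb centered on the 4 Acsl genes without a LAD, LAD cover was higher in KO at *Acsl1* (1.28% in WT, 14.6% in KO), *Acsl3* (57.5% and 64.1%) and *Acsl6* (0% and 7.77%) and lower at *Acsl5* (22.4% and 3.47%). Chromosome 19, which holds *Acsl5*, had 39.4% of its bases in WT LADs and 18.8% in KO LADs, and 14.9% of its 724 genes were PI against 4.7% IP. The 1 Mb windows of the 5 Acsm genes overlap each other, and all were lower in KO by a few points, with 66.0% in WT and 59.7% in KO at *Acsm5*, and 53.5% and 49.8% at *Acsm3*. At *Acsm4* and *Acsm3* the gene itself was covered more in KO while the window around it was covered less.

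**Figure D4:**
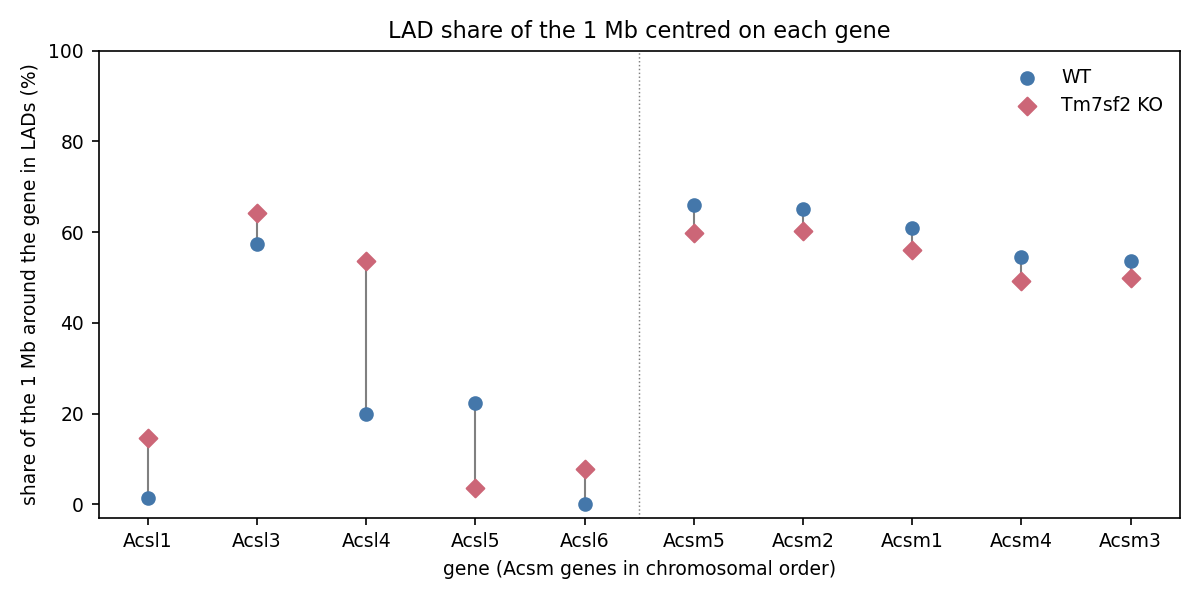
Share of the 1 Mb centered on each gene in LADs (percent, y axis) for the 10 genes (x axis), in WT (blue circles) and *Tm7sf2* KO (red diamonds), each from 1 pooled library pair. *Acsl4* stands at 20.0% in WT and 53.6% in KO, *Acsl5* at 22.4% and 3.47%, and the Acsm windows, which overlap each other, lie between 49.3% and 66.0%.

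Genes that act before or after these enzymes were placed from 5 lists, all 76 of whose genes were found in the annotation. Over the lists 5 genes were PI, 7 IP, 1 PP and 63 II, which is 6.58% PI and 9.21% IP against 5.43% and 17.1% of all genes. For PP the share was 1.32% against 17.9%, and for II 82.9% against 56.6%. Of the 14 other acyl-CoA synthetases 2 were PI and 2 IP (14.3% each). *Slc27a6*, a fatty acid transport protein gene, had 18.7% of its span in WT-only DRs, and *Acss3*, a short-chain synthetase, had 13.9%. In KO, LADs still covered 81.3% of *Slc27a6* (100% in WT) and 52.7% of *Acss3* (74.8% in WT). *Acss2*, the cytosolic acetyl-CoA synthetase, had 22.1% of its span in KO-only DRs without an exon in them, and *Acss1*, its mitochondrial counterpart, had 11.4%. *Acss1* was already 88.6% in LADs in WT, so that its call concerned its 5′ end.

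Of 26 genes of the carnitine shuttle and beta-oxidation 2 were PI and 2 IP (7.69% each), against 5.43% PI and 17.1% IP of all genes. *Acadsb*, a short/branched-chain acyl-CoA dehydrogenase, was covered by WT LADs over 46.2% of its span and 6 of 11 exons, and by none in KO. *Hsd17b4*, of peroxisomal beta-oxidation, had 3.81% in a WT-only DR. *Decr1*, the reductase for unsaturated fatty acids, had 59.1% in KO-only DRs and its start in a KO LAD only, and *Crot*, the peroxisomal carnitine acyltransferase, had 22.7%. All 13 genes of acyl-CoA transfer and binding, such as *Gpam*, *Dgat1*, *Dgat2* and *Fabp1*, were II with no LAD in either genotype. Of all protein-coding genes 56.6% were II. Of 13 thioesterases *Acot12* (31.9%) and *Acot9* (15.5%) were IP by the given shares in KO-only DRs, and *Acot10* was PP. These are 15.4% IP and 7.69% PP, against 17.1% and 17.9% of all genes. Of 10 genes of uptake and regulation *Ppargc1a* was PI, with 42.2% of its span in WT-only DRs, and *Cd36*, the fatty acid translocase, was IP with 42.7% in KO-only DRs. That is 10% of this list in each class.

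**Figure D5:**
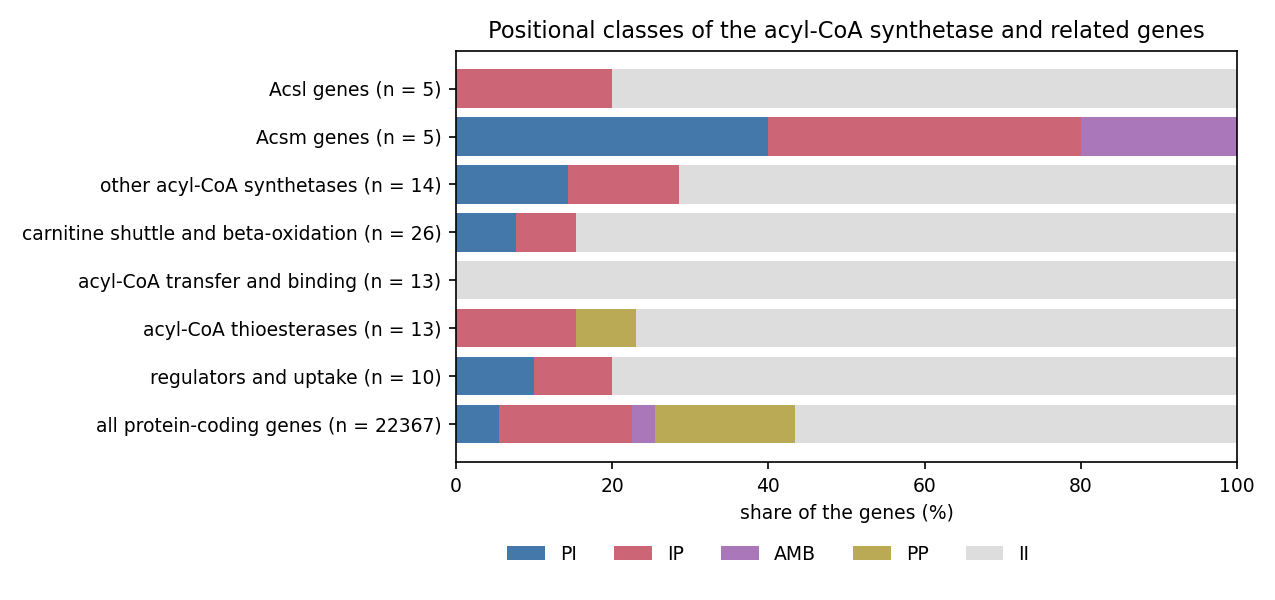
Share of the genes in each positional class (percent, x axis) for the Acsl genes, the Acsm genes, the 5 lists of related genes and all protein-coding genes (y axis, with the number of genes). Colors stand for PI, IP, AMB, PP and II. The bar of the 5 Acsm genes has no II part, and that of the 13 transfer and binding genes is II throughout.

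For the members that overlapped a DR, the genes of the lists nearest to them in LAD share were found. The measure was the sum of the absolute differences in WT and KO share of the span, over the 2 genotypes. *Acsl4* (0% and 25.2%) was nearest to *Crot* (0% and 22.7%), at 2.51 points, and to *Acss2* (0% and 22.1%), at 3.12 points. *Acsm3* (0% and 37.2%) was nearest to *Acot12* (0% and 31.9%), at 5.27 points. The nearest listed gene was farther away at the other Acsm genes. It was *Acadsb* at 22.3 points for *Acsm5* and at 53.8 points for *Acsm2*. For *Acsm4* it was *Decr1* at 39.5 points, and for *Acsm1* it was *Ppargc1a* at 40.2 points.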

How the data were processed

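Lamin B1 contacts were measured by DamID in WT and *Tm7sf2*-KO hepatocytes. The authors mapped the reads to mm9 and compared Dam-LaminB1 with Dam only as a log2 ratio for each *DpnI* fragment, from which DNAcopy segmentation gave the LADs. The submitters' processing notes name BWA and limma. The deposited lists hold interval positions only, with no value per sample, and DRs are the stretches of 1 LAD list outside the other. Repeating that subtraction with a minimum of 10 kb returned all 7787 and all 8208 DRs, with 0 differences.

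Genes came from the GENCODE annotation of NCBIM37, the assembly of mm9. Exons were those of the coding transcript with the most exonic bases. Positions are 1-based. Python 3.11.15, pysam 0.24.0, samtools 1.23.1, Biopython 1.88, numpy 2.4.6, scipy 1.17.1 and matplotlib 3.10.9 were used. On simulated intervals with known answers these steps made 0 errors. With 1 library pair per genotype no test was made.

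The text names the 10 members, the genes between and beside them, and, from the lists of related genes, those called PI, IP or AMB (the top 3 per list and direction by share in DRs) and the 2 most alike in LAD share. Others are named as examples. The members and lists were chosen with earlier results of these data known. Alternatives were the overlap asked, the part of the gene, the minimum length of DRs and LADs, the joining of LADs and the gene model. Read depth, the signal profiles and expression are not analysed here.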

Additional observations from a re-analysis of the deposited data

How the results depend on the processing

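*Acsm2* stayed PI and *Acsm4* IP, and *Acsl1* and *Acsl5* II, under all 9 alternatives, whereas *Acsm1* kept its call in 4 of 9, *Acsm3* in 6, and *Acsl3*, *Acsl4*, *Acsl6* and *Acsm5* in 8. The AMB call of *Acsm1* could not be kept at 50% of the span or by the transcription start only, where 0 of 22367 genes were AMB. Its count is therefore not on a par with the others. Where a call needed 50% of the span, 1 member was IP, 0 AMB and 7 II, 0 related genes were PI and 1 IP, and 2.23% of all genes were PI and 7.54% IP. By the transcription start only, 0 members were AMB, 1 related gene was PI and 3 IP, and 2.23% of all genes were PI. Under both of these settings AMB was practically excluded in advance, because WT-only and KO-only DRs share no base. The 0 AMB members there therefore say nothing about the members. With the 100 kb centered on the gene, 2 members were AMB and 2 II, 17 related genes were IP, and 9.71% of all genes were PI and 27.1% IP. That window gave 11.2% LAD cover for the Acsl genes and 40.5% for the Acsm genes in KO. With DRs of at least 20 kb, 0 members were AMB, 2 related genes were PI and 3 IP, and 3.25% of all genes were PI and 11.1% IP. With LADs joined across gaps of up to 50 kb, 0 members were AMB, 2.81% of all genes were PI, and the Acsm cover was 69.2% in WT and 45.5% in KO. With differences of any length, and with LADs of at least 20 kb, 3 related genes were PI, and the latter gave an Acsm cover of 36.4% in WT. By the main coding transcript 0 members were AMB. Over exonic bases the cover was 14.4% for the Acsl genes in KO, and 39.9% in WT and 41.3% in KO for the Acsm genes, which turns the order of the genotypes. The KO minus WT difference at *Acsm1* turned from 6.40 to -16.2 points in the 100 kb window and to -55.7 points with joined LADs. The backgrounds by chromosome and by gene length were added after seeing the data: 8.8% PI and 28.5% IP among genes of the X chromosome, 14.9% and 4.7% on chromosome 19, and 11.2% IP on chromosome 7. Genes as long as the members were 5.01% PI, 22.3% IP, 1.42% AMB and 9.81% PP, so that AMB and PP differed from all genes by more than a factor of 1.5. A number or percent of genes counted as unchanged within that factor, which held for 47 of 78 comparisons and not for 31. The 31 include the AMB counts of members at 50% of the span and by the transcription start only, which were fixed in advance. The covers were sorted by 95% Wilson intervals over GATC sites, which are too narrow because the sites of 1 LAD are not independent, so no stability is read from them. The cause of these differences was not tested.

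Depth per region is unknown, LADs under 10 kb and gaps under 8001 bp are outside what the lists hold, and with 1 library pair per genotype a difference between genotypes cannot be told apart from one between cultures. No paired analysis was possible because no group has replicates.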

Other observations

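On the far side of *Acsl4*, *Tmem164*, the next gene at 290.9 kb, was IP with 64.6% of its span in KO-only DRs. The DR there, from 139051037 to 139186584 on the X chromosome, was 135.5 kb long and rank 14 of the 8208 KO-only DRs by length. In the 500 kb centered on *Acsl4* LADs covered 11.4% in WT and 38.2% in KO.

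Next to *Acsl3*, *Kcne4* lay wholly in LADs of both genotypes, while *Mogat1*, a monoacylglycerol acyltransferase gene on the other side, was II, its start 114.3 kb from a WT LAD and 6.59 kb from a KO LAD. Beside *Acsl6*, the start of *Il3* was 1105 kb from a WT LAD and 106.6 kb from a KO LAD.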
